A study of Homo sapiens with 9 samples.

Results

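Lipid droplets are stores of neutral lipid that cells build from surplus fatty acids, and 10 genes that coat, fill or empty them are described here in a lung cancer cell line exposed to the compounds RSGL and BSGL. The genes were taken by symbol from the deposited table, which lists 45754 genes, and all 10 were found. They are the coat proteins PLIN2, PLIN3, PLIN4 and PLIN5, the triglyceride synthases DGAT1 and DGAT2, the lipases PNPLA2 and LIPE, and the lipase inhibitors G0S2 and HILPDA. Transcripts were read by RNA sequencing of 9 libraries from H441 cells, by their label a human lung adenocarcinoma line. There were 3 libraries each of cells given 10 µM RSGL for 24 h, 10 µM BSGL for 24 h, or 0.1% DMSO for 24 h as solvent control, and each held 16720414 to 18738947 fragments in genes.

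The labels disagree on the cells: beside the cell line H441, a genotype tag reads A549 for the RSGL libraries and H460 for the BSGL and control libraries. A change of cell line and an effect of RSGL cannot be told apart from these labels. In the values, 0 genes stood at 5 FPKM or more (fragments per kilobase of gene, scaled to library size) in every RSGL library and at 0.1 FPKM or less in every control library, and 0 genes did so the other way round. Of 9 lung lineage markers chosen because of the H441 label, 1, FOXA2, reached 1 FPKM in at least 3 libraries, and 4 stayed at or under 0.1 FPKM in each library. All 12 genes of a list typical of KEAP1-mutant lines, among them A549 and H460, reached that level, and under RSGL 2 of the 12 were higher and 9 lower than in control, where 27.2% of all tested genes were higher and 27.6% lower. Their summed level ran from 1736 to 1799 FPKM in RSGL libraries, from 2366 to 2438 FPKM in BSGL libraries and from 2529 to 2566 FPKM in control libraries, and its part in the results below was not tested.

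A droplet fills when acyl chains are joined to a glycerol backbone, a route that ends with DGAT1 and DGAT2, and its surface is covered by perilipins. PNPLA2, the adipose triglyceride lipase, removes the first acyl chain from a triglyceride, and LIPE, the hormone-sensitive lipase, then acts on the diacylglycerol. G0S2 and HILPDA are small proteins that bind PNPLA2 and inhibit it. PLIN2 and G0S2 are known targets of PPAR receptors, which sense fatty acids, and HILPDA is a known target of hypoxia-inducible factors.

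Transcripts of the coat protein PLIN2 were 7.72 times, those of the coat protein PLIN4 3.80 times and those of the inhibitor G0S2 3.08 times as abundant in RSGL cells as in control cells (ratios of mean FPKM, n = 3 each), and the synthase DGAT2 rose by less, to 1.32 times. HILPDA, the other inhibitor, fell to 0.839 times its control level. PLIN4 was low, at 0.665 FPKM in control cells, and was tested because of its RSGL values. PLIN3, DGAT1 and the lipases PNPLA2 and LIPE did not pass the test, and PLIN5 was too low to test. Under BSGL, G0S2 alone among these genes passed, with a rise to 1.33 times, where 0.0861% of all tested genes passed. That BSGL call held in only 2 of 12 alternative settings.

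The 300-base windows around the starts of the 3 genes that rose most, from 250 bases before the start to 50 after it, are shown because these genes moved in the same direction under RSGL. They are given 5′ to 3′ on each gene's own strand, from RefSeq on GRCh38.p14, with capitals for matches to the motifs listed after them. PLIN2 is shown at chr9:19127443-19127742 (minus strand), PLIN4 at chr19:4518437-4518736 (minus strand) and G0S2 at chr1:209675162-209675461 (plus strand). The starts are those of RefSeq and lie downstream of the gene starts in the deposited table, by 114 bases for PLIN2, 1799 bases for PLIN4 and 87 bases for G0S2.
PLIN2: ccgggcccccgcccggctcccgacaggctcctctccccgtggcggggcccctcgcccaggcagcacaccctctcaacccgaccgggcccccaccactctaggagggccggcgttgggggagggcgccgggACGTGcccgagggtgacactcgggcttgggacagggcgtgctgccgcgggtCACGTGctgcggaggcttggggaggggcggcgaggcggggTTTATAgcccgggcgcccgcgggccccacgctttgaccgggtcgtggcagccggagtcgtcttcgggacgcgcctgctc
PLIN4: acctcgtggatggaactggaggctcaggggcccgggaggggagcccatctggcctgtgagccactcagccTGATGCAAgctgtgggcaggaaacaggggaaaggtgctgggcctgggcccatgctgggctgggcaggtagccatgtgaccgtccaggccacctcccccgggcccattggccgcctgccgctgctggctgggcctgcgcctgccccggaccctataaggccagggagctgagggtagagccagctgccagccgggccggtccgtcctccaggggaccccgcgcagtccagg
G0S2: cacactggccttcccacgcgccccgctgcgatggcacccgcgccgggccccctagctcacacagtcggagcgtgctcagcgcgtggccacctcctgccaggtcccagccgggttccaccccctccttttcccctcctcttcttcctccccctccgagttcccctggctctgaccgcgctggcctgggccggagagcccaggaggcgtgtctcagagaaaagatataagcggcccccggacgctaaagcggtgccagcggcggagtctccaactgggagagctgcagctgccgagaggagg

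Both strands were searched for 6 motifs: the PPAR/RXR direct repeat AGGTCANAGGTCA, the nuclear receptor core AGGTCA, which is part of that repeat, the hypoxia element core ACGTG, the TATA box TATAAA, the AP-1 element TGANTCA and the ATF4-C/EBP element TGATGNAA. With positions counted from the start, the PLIN2 window held ACGTG at -120 and, at -69, the palindrome CACGTG, which counts as a match on each strand. It also held the TATA box letters on the reverse strand at -29. The PLIN4 window held the ATF4-C/EBP letters at -180, and the G0S2 window held none of the 6. Among 35116 windows of the same length from 27305 genes, 21.4% held ACGTG, 11.5% TATAAA, 3.62% TGATGNAA, 13.8% AGGTCA, 7.71% TGANTCA and 0.0228% the direct repeat. Among the 13815 windows of tested genes the shares were 25.9% for ACGTG, 6.02% for TATAAA, 1.95% for TGATGNAA, 9.97% for AGGTCA, 5.33% for TGANTCA and 0.0362% for the direct repeat. Windows were also read for PLIN3, PLIN5, LIPE and PNPLA2, of which PNPLA2 had AGGTCA, on the reverse strand at -239, and the others had 0 matches. These are matches of letters and not sites shown to bind a factor. GC content was 76.7% in the PLIN2 window, 70.7% in that of PLIN4 and 69.0% in that of G0S2, beside a median of 58.7% over all windows.

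Among the coat proteins, PLIN2, the perilipin found on droplets of most cell types, stood at 124.6, 116.0 and 124.8 FPKM in the RSGL libraries, at 19.6, 18.8 and 18.0 FPKM in the BSGL libraries and at 15.8, 15.0 and 16.5 FPKM in the control libraries. Each RSGL library lay above each BSGL library, and each of these above each control library. The mean was 121.8 ± 4.99 FPKM in RSGL cells and 15.8 ± 0.733 FPKM in control cells (SD, n = 3 each), a ratio of 7.72. On the log2(FPKM + 1) scale, which understates the change of low genes, PLIN2 rose by 2.87 under RSGL (SE 0.0464, limma adjusted p = 1.74e-10), the rise of rank 4 among 12775 tested genes. In bulk RNA, more cells that hold a transcript and more of it per cell cannot be told apart. The BSGL mean was 18.8 ± 0.764 FPKM, and its difference of 0.24 from control (95% interval 0.13 to 0.34) did not pass (limma adjusted p = 0.196).

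PLIN3, a perilipin that sits in the cytosol and coats newly formed droplets, stood at 67.9, 66.1 and 66.3 FPKM in RSGL libraries, at 66.7, 66.5 and 65.5 FPKM in BSGL libraries and at 65.9, 66.0 and 65.2 FPKM in control libraries. Its level was nearly even over the 9 libraries. The log2 difference between RSGL and control was 0.023, with a 95% interval of -0.036 to 0.082 (limma adjusted p = 0.482), and that between BSGL and control was 0.012, with an interval of -0.047 to 0.071 (adjusted p = 0.975).

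PLIN4, a long perilipin best known from fat and muscle cells, stood at 2.69, 2.55 and 2.34 FPKM in RSGL libraries, at 1.03, 0.878 and 0.876 FPKM in BSGL libraries and at 0.562, 0.785 and 0.649 FPKM in control libraries. The 3 groups did not overlap, although the gene reached 1 FPKM in only 4 libraries, all of them treated. PLIN4 rose by 1.08 under RSGL (SE 0.0786, limma adjusted p = 2.04e-06), where the means were 2.53 ± 0.173 FPKM in RSGL cells and 0.665 ± 0.112 FPKM in control cells (SD, n = 3 each). The gene was tested because of its RSGL values, and the change was 1.79 with a pseudocount of 0.1 and 1.93 with limma-voom on recovered fragments. The end of PLIN4 overlaps that of HDGFRP2 on the opposite strand, which averaged 17.6 FPKM under RSGL, 21.7 FPKM under BSGL and 22.1 FPKM in control. PLIN5, the perilipin of tissues that burn much fat, had 1 to 5 fragments in RSGL libraries, 2 to 5 in BSGL libraries and 2 to 8 in control libraries. It was too low to be tested, and a difference in PLIN5 was not detectable at this depth.

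**Figure D1:**
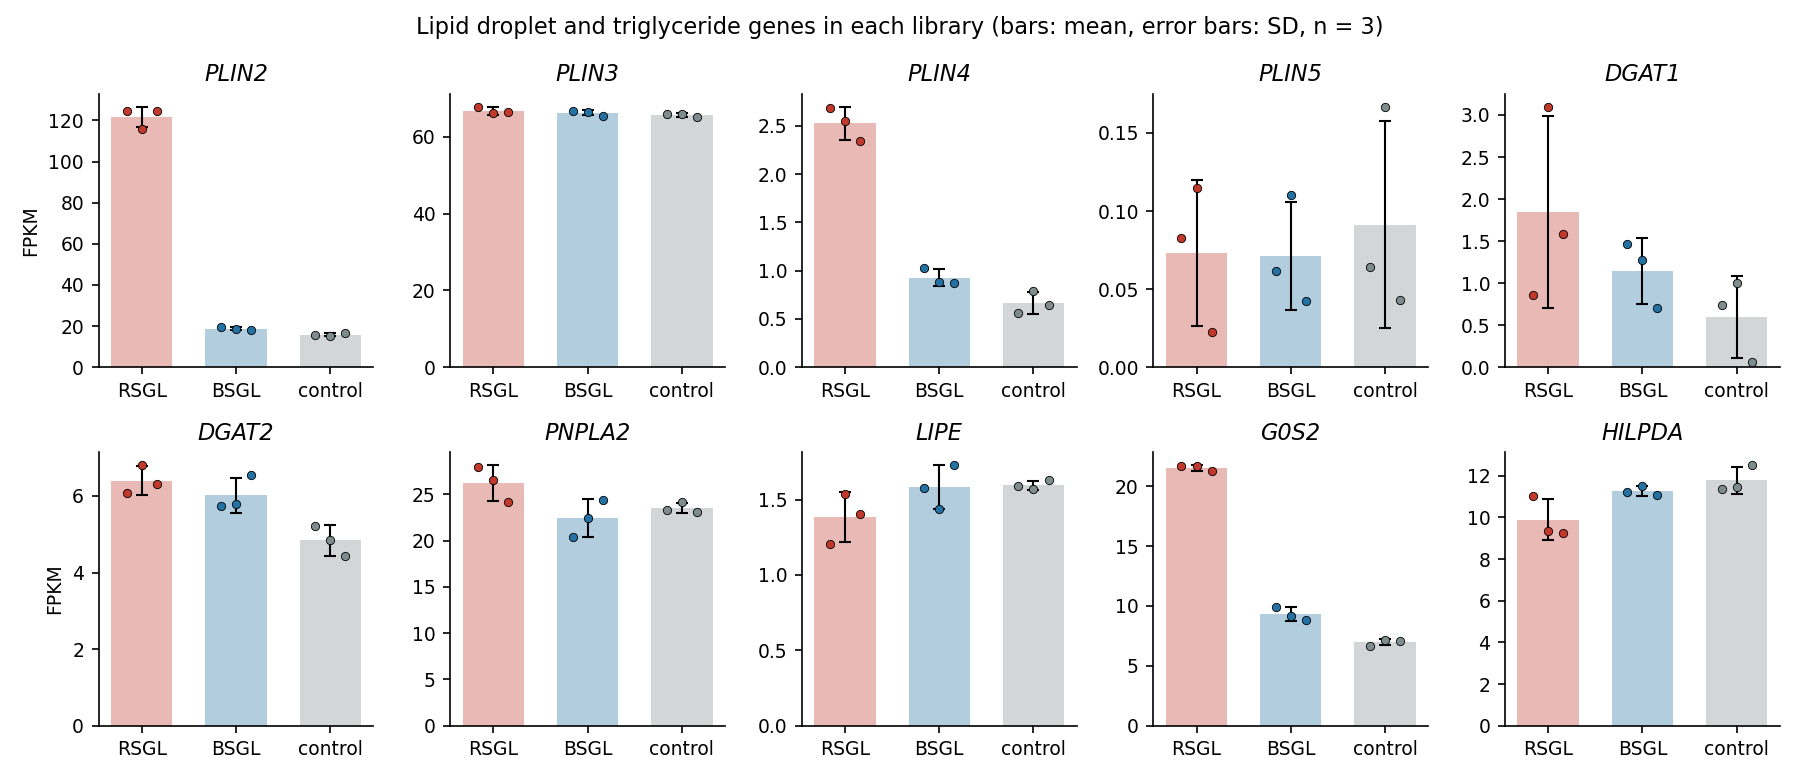
FPKM of the 10 genes in RSGL, BSGL and control libraries; points are libraries, bars are means and error bars are SD (n = 3), and each panel has its own axis from 0. PLIN2, PLIN4 and G0S2 are high in the 3 RSGL libraries, PLIN3 is level across groups, and DGAT1 varies widely within each group.

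With these changes the make-up of the perilipin transcripts differed between groups. PLIN2 made up 63.7 ± 0.849% of the summed FPKM of PLIN2 to PLIN5 in RSGL cells, 21.8 ± 0.527% in BSGL cells and 19.2 ± 0.846% in control cells (SD, n = 3 each). PLIN3 made up 34.9 ± 0.749%, 77.0 ± 0.607% and 79.9 ± 0.700% in the same order of RSGL, BSGL and control. PLIN2 was thus the leading perilipin transcript in each RSGL library and PLIN3 in each other library. The sum of the 4 genes was 191.2 ± 5.60 FPKM in RSGL cells, 86.0 ± 1.46 FPKM in BSGL cells and 82.2 ± 0.208 FPKM in control cells.

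**Figure D2:**
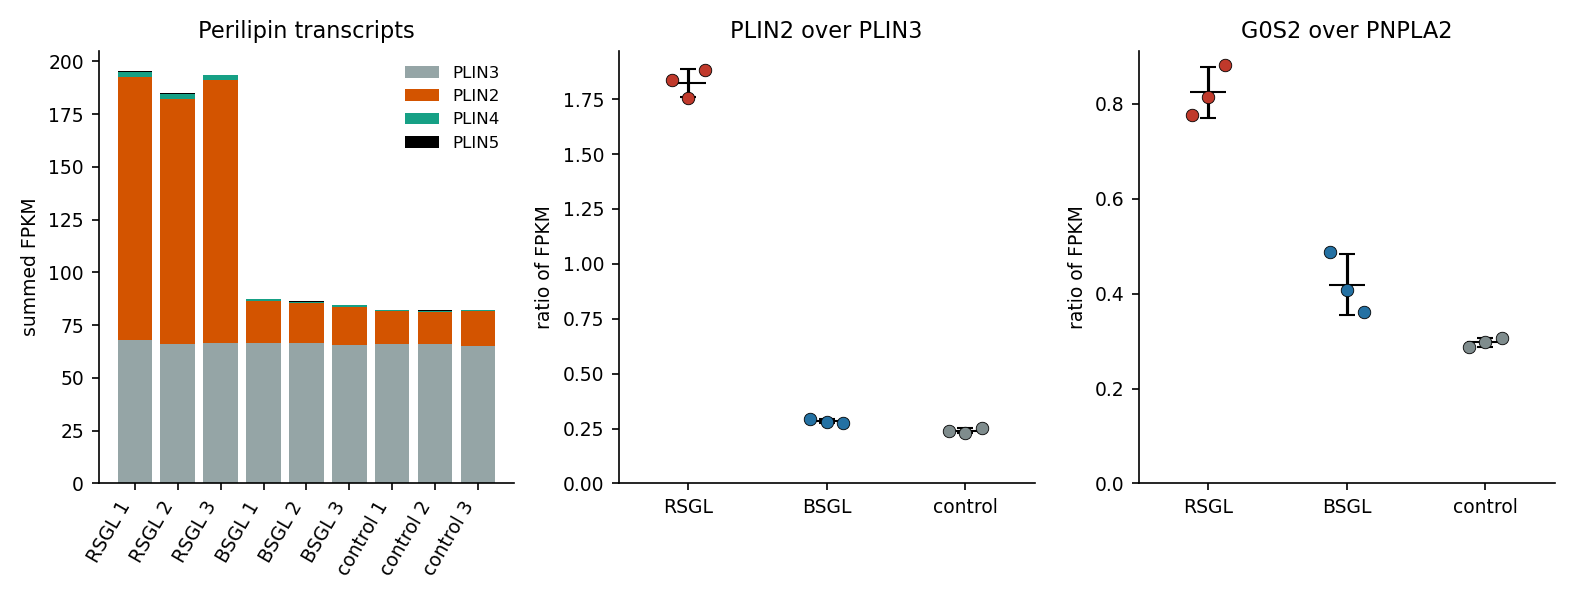
Left, summed FPKM of the 4 perilipin genes in each library; middle and right, ratios of FPKM within each library, with means as dashes and SD as error bars (n = 3). PLIN3 gives a like amount in every library while PLIN2 adds 116.0 to 124.8 FPKM under RSGL, and both ratios are highest in the 3 RSGL libraries.

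Of the synthases, DGAT2, which works at the droplet and the endoplasmic reticulum, stood at 6.06, 6.81 and 6.32 FPKM in RSGL libraries, at 5.74, 5.78 and 6.54 FPKM in BSGL libraries and at 5.22, 4.86 and 4.43 FPKM in control libraries. Both treated groups lay above control and overlapped each other. DGAT2 rose by 0.34 under RSGL (SE 0.0675, limma adjusted p = 0.00177). Its difference of 0.27 under BSGL, with a 95% interval of 0.12 to 0.42, did not pass (adjusted p = 0.368), and RSGL and BSGL differed by 0.076 (interval -0.075 to 0.23, adjusted p = 0.37).

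DGAT1, the synthase of the endoplasmic reticulum, stood at 0.858, 3.10 and 1.58 FPKM in RSGL libraries, at 1.46, 1.27 and 0.704 FPKM in BSGL libraries and at 0.734, 1.01 and 0.0619 FPKM in control libraries. The groups overlapped, and the highest and lowest value of each group lay far apart. The difference between RSGL and control, 0.80, had a 95% interval of 0.0018 to 1.61 and did not pass (limma adjusted p = 0.0831), though it passed without RSGL replicate 1, at 1.07 (adjusted p = 0.03). The difference was 1.70 with a pseudocount of 0.1 and 2.11 with limma-voom, neither of which passed. The deposited row places DGAT1 on an alternate sequence of chromosome 8, at bases 45186 to 57522 of that sequence. Over the 262 tested genes on such sequences the median coefficient of variation within groups was 27.0%, against 5.44% over the 12513 on chromosomes, and for DGAT1 it was 59.1%. HSF1, which overlaps DGAT1 there on the opposite strand, ran from 0.205 to 5.27 FPKM. The level of DGAT1 is therefore uncertain.

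Of the lipases, PNPLA2 stood at 28.0, 26.6 and 24.1 FPKM in RSGL libraries, at 20.4, 22.4 and 24.4 FPKM in BSGL libraries and at 23.3, 24.2 and 23.1 FPKM in control libraries. The groups overlapped. The difference of 0.15 between RSGL and control did not pass (SE 0.0677, limma adjusted p = 0.0886), although it did with limma-voom (adjusted p = 0.0367) and without RSGL replicate 3 (0.0318). The difference of -0.069 between BSGL and control did not pass (adjusted p = 0.942). LIPE was low, at 1.21, 1.53 and 1.41 FPKM in RSGL libraries, 1.58, 1.44 and 1.73 FPKM in BSGL libraries and 1.59, 1.57 and 1.63 FPKM in control libraries. The RSGL libraries lay just below the control libraries, and the difference of -0.13 (95% interval -0.29 to 0.040) did not pass (limma adjusted p = 0.177). A long noncoding gene on the opposite strand, LOC101930071, overlaps LIPE and ran from 0.173 to 4.13 FPKM over the libraries, so LIPE reads are uncertain where strand was not counted.

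The inhibitors of PNPLA2 moved in opposite directions under RSGL. G0S2 stood at 21.7, 21.7 and 21.3 FPKM in RSGL libraries, at 9.95, 9.15 and 8.81 FPKM in BSGL libraries and at 6.69, 7.20 and 7.10 FPKM in control libraries. The 3 groups did not overlap, with BSGL between RSGL and control. G0S2 rose by 1.50 under RSGL (SE 0.0474, limma adjusted p = 8.55e-09), where the ratio of means was 3.08. It rose by 0.36 under BSGL (SE 0.0474, limma adjusted p = 0.0286), with a ratio of 1.33. That BSGL call was lost without any single 1 of the 6 libraries compared (adjusted p = 0.0797 to 0.159) and with limma-voom (adjusted p = 0.225). G0S2 lies within LOC101930114, a long noncoding gene on the opposite strand. LOC101930114 averaged 0.159 FPKM in RSGL, 0.534 FPKM in BSGL and 0.438 FPKM in control cells.

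HILPDA stood at 11.0, 9.34 and 9.27 FPKM in RSGL libraries, at 11.2, 11.5 and 11.1 FPKM in BSGL libraries and at 11.4, 11.4 and 12.5 FPKM in control libraries. The RSGL libraries lay below the others, with RSGL replicate 1 close to them. LOC102724660, a long noncoding gene on the same strand, spans HILPDA and ran from 0.485 to 0.880 FPKM over the libraries. HILPDA fell by 0.23 under RSGL (SE 0.0637, limma adjusted p = 0.0106), and its difference of -0.058 under BSGL had a 95% interval of -0.20 to 0.085 (adjusted p = 0.945). Set against the lipase they bind, G0S2 had 0.824 ± 0.0534 times the FPKM of PNPLA2 in RSGL cells, 0.419 ± 0.0643 times in BSGL cells and 0.298 ± 0.00975 times in control cells (SD, n = 3 each). HILPDA had 0.377 ± 0.0221 times the FPKM of PNPLA2 in RSGL cells, 0.505 ± 0.0488 times in BSGL cells and 0.501 ± 0.0359 times in control cells. G0S2 was thus the more abundant inhibitor transcript per length in RSGL cells, and HILPDA in BSGL and control cells.

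**Figure D3:**
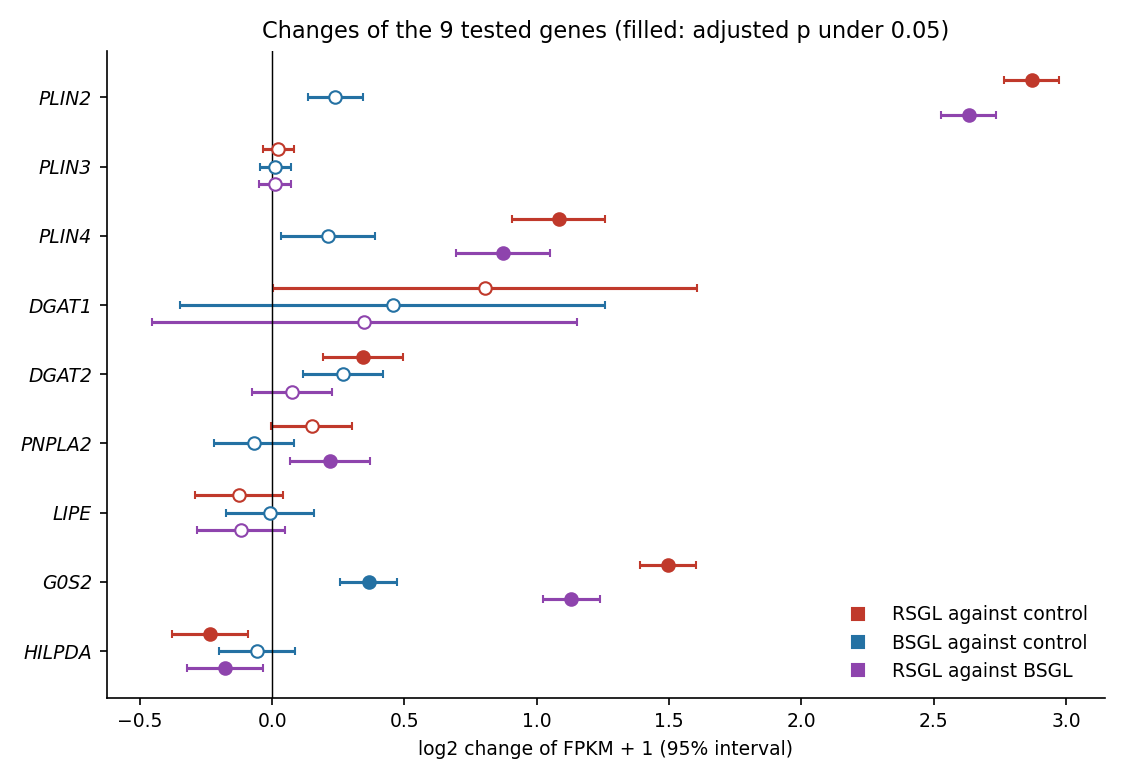
Log2 change of FPKM + 1 with its 95% interval for the 9 tested genes in the 3 comparisons; filled points passed at an adjusted p under 0.05 over all genes. PLIN2, G0S2 and PLIN4 lie far to the right for RSGL against control and against BSGL, and the BSGL points lie between -0.07 and 0.46.

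Of the 9 tested genes, limma called 4 higher and 1 lower under RSGL against control, where 54.8% of all 12775 tested genes were called, 27.2% higher and 27.6% lower. At an unadjusted p under 0.05 it was 6 of 9, beside 59.7% of all genes. The count in either direction is thus near the share over all genes. Of the 4 rises, 3 were of 2-fold or more on the log2(FPKM + 1) scale, as were those of 1.79% of all genes. The counts here include PLIN4, which entered the test because of its RSGL values. The libraries of RSGL and control did not overlap in 7 of the 9, where this held for 61.2% of all genes. The median change was 0.34, against -0.00085 over all genes. Under BSGL 1 of 9 was called, where 0.0861% of all genes were, 0.047% higher and 0.0391% lower (6 and 5 genes, and 10 and 21 genes with limma-voom). At an unadjusted p under 0.05 it was 4 of 9, beside 6.71% of all genes, and 4 of 9 did not overlap with control, where 12.8% of all genes did not.

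The compounds were also compared with each other at equal dose and time, a single pair with p-values adjusted over all genes. PLIN2 was higher under RSGL than under BSGL by 2.63 (95% interval 2.53 to 2.74, limma adjusted p = 3.99e-10), G0S2 by 1.13 (interval 1.02 to 1.24, adjusted p = 5.54e-08) and PLIN4 by 0.87 (interval 0.70 to 1.05, adjusted p = 1e-05, and by 1.36 with a pseudocount of 0.1). These 3 genes carried the largest differences of the 9, and PLIN4 was tested because of its RSGL values. PNPLA2 was higher by 0.22 (adjusted p = 0.0208) and HILPDA lower by 0.18 (adjusted p = 0.0389), for a count of 4 higher and 1 lower where 54.0% of all genes were called, 26.5% higher and 27.5% lower. Rises of at least 2-fold were called for 1.52% of all genes, PLIN2 and G0S2 among them. At an unadjusted p under 0.05 it was 5 of 9, beside 59.0% of all genes. The calls of PNPLA2 and HILPDA depended on single libraries and on the settings. That of PNPLA2 was lost without RSGL replicate 1 (limma adjusted p = 0.0766), RSGL replicate 2 (0.0595) or BSGL replicate 1 (0.0746), and with no filter (0.0634). That of HILPDA was lost without RSGL replicate 2 or 3 or any BSGL replicate (limma adjusted p = 0.066 to 0.127). It was also lost with no filter (0.100), only the 2 groups compared (0.0507), a replicate block (0.0623) and limma-voom (0.0885). For PLIN3 the difference was 0.011, with an interval of -0.048 to 0.070, and for LIPE it was -0.12, with an interval of -0.28 to 0.048.

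Per kilobase, the order of levels in control cells was PLIN3, PNPLA2, PLIN2, HILPDA, G0S2, DGAT2, LIPE, PLIN4, DGAT1 and PLIN5. Ranges of neighbours in this order overlapped between PLIN4 and DGAT1 and between DGAT1 and PLIN5. In BSGL cells the first 7 genes kept these places. In RSGL cells PLIN2 led, at 121.8 FPKM, before PLIN3 at 66.8 FPKM, PNPLA2 at 26.2 FPKM, G0S2 at 21.5 FPKM and HILPDA at 9.87 FPKM, with no overlap between neighbours.

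Other genes of droplet biology were counted in 5 lists. Of 77 genes 52 were tested, and 26 were higher and 6 lower under RSGL than in control, where 54.8% of all tested genes were called, 27.2% higher and 27.6% lower. The number called in either direction was thus near the share over all genes, but with a larger share of rises and a smaller share of falls. For BSGL limma called 0 of 52, where 0.0861% of all genes were called and 4 of the 52 had an unadjusted p under 0.05. With limma-voom 1 was called for BSGL, the sterol and fatty acid synthesis factor SREBF1, named here after its values were seen. SREBF1 averaged 22.2 ± 0.379 FPKM in RSGL cells, 25.9 ± 1.97 FPKM in BSGL cells and 32.7 ± 1.41 FPKM in control cells. Its difference from control was -0.54 under RSGL (limma adjusted p = 2.02e-05). Under BSGL it was -0.32 (limma adjusted p = 0.113, limma-voom adjusted p = 0.000644). In lipolysis 6 of 7 tested genes rose and 0 fell, where 27.2% of all genes rose and 27.6% fell (median 0.50, against -0.00085 over all genes). MGLL, the monoglyceride lipase that completes lipolysis, averaged 31.5 ± 0.837 FPKM in RSGL cells, 18.9 ± 0.634 FPKM in BSGL cells and 18.0 ± 0.364 FPKM in control cells (SD, n = 3 each), and rose by 0.78 under RSGL (limma adjusted p = 1.14e-07). PNPLA3, a relative of PNPLA2, rose by 0.59 and ABHD6, a monoglyceride lipase, by 0.55 (adjusted p = 0.000564 and 7.65e-05). ABHD5, the activator of PNPLA2 that G0S2 and perilipins work against, averaged 5.71 FPKM in RSGL cells, 3.85 FPKM in BSGL cells and 3.76 FPKM in control cells and rose by 0.50 (adjusted p = 3.49e-05).

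In triglyceride synthesis 5 of 12 tested genes rose and 1 fell (median 0.15), a number called near the 54.8% over all genes, of which 27.2% rose and 27.6% fell. GPD1L, of the glycerol phosphate dehydrogenase family, averaged 15.1 ± 0.733 FPKM in RSGL cells, 10.0 ± 0.165 FPKM in BSGL cells and 9.03 ± 0.485 FPKM in control cells and rose by 0.68 (limma adjusted p = 1.76e-06). Glycerol kinase, GK, rose by 0.55 (adjusted p = 0.000124), and the acyltransferase GPAT3, which starts the route in the endoplasmic reticulum, by 0.52 (adjusted p = 4.14e-06). GPAM, its mitochondrial counterpart, fell by 0.23 (adjusted p = 0.00163). GPAT4, another acyltransferase of the same step, averaged 18.9 ± 0.244 FPKM in RSGL cells, 18.0 ± 0.303 FPKM in BSGL cells and 18.1 ± 0.359 FPKM in control cells, and its difference of 0.060 under RSGL did not pass (adjusted p = 0.143).

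In fatty acid uptake and activation 5 of 8 rose and 1 fell (median 0.23), where 27.2% of all genes rose and 27.6% fell. ACSL4, which joins polyunsaturated fatty acids to coenzyme A, averaged 31.3 ± 2.08 FPKM in RSGL cells, 21.7 ± 1.10 FPKM in BSGL cells and 21.5 ± 0.437 FPKM in control cells, a rise of 0.52 (limma adjusted p = 1.99e-05). The fatty acid transport proteins SLC27A1 and SLC27A4 each rose by 0.51 (adjusted p = 0.000303 and 4.13e-05), and SLC27A2 fell by 0.41 (adjusted p = 0.000149). Among droplet formation and surface proteins 3 of 12 rose and 1 fell (median 0.0082), with the rises near the 27.2% over all genes and the fall beside 27.6%. LDAF1, listed as TMEM159, a partner of seipin in droplet assembly, averaged 2.30 ± 0.344 FPKM in RSGL cells, 1.07 ± 0.0145 FPKM in BSGL cells and 0.999 ± 0.110 FPKM in control cells and rose by 0.72 (adjusted p = 6.21e-05). CIDEC, which fuses droplets, fell by 0.29 (adjusted p = 0.0339) and SPART, listed as SPG20, rose by 0.15 (adjusted p = 0.0216). CIDEC was close to the filter of 1 FPKM, at 0.993 ± 0.169 FPKM in RSGL cells, 1.82 ± 0.198 FPKM in BSGL cells and 1.45 ± 0.278 FPKM in control cells.

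Among transcription regulators known to act on these genes, 7 of 13 rose and 3 fell under RSGL (median 0.26), where 27.2% of all genes rose and 27.6% fell. The 3 that fell were SREBF1 (-0.54), PPARGC1A (-0.45) and TFEB (-0.39), with limma adjusted p = 2.02e-05, 0.00111 and 0.00476. PPARGC1A was low, at 0.527 ± 0.0632 FPKM in RSGL cells, 0.982 ± 0.0725 FPKM in BSGL cells and 1.08 ± 0.116 FPKM in control cells. It was tested because of its values in the BSGL or control libraries, since the RSGL libraries lay under 1 FPKM. The count of falls includes it. CEBPB, a factor of fat cell differentiation and of stress responses, averaged 108.8 ± 2.43 FPKM in RSGL cells, 34.9 ± 2.25 FPKM in BSGL cells and 39.1 ± 2.96 FPKM in control cells, a rise of 1.46 (limma adjusted p = 3.65e-08). The fatty acid receptors PPARA and PPARG rose by 0.59 and 0.58 (adjusted p = 0.000124 and 2.16e-06). PPARA stood at 1.38 to 1.47 FPKM in RSGL libraries, 0.597 to 0.710 FPKM in BSGL libraries and 0.521 to 0.673 FPKM in control libraries, so it was tested because of its RSGL values. PPARG stood at 19.0 ± 0.893 FPKM in RSGL cells, 12.8 ± 0.430 FPKM in BSGL cells and 12.3 ± 0.208 FPKM in control cells. Of the hypoxia-inducible factors, HIF1A differed by -0.033 and did not pass (adjusted p = 0.582), and EPAS1 rose by 0.32 (adjusted p = 5.54e-05), beside the fall of HILPDA.

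**Figure D4:**
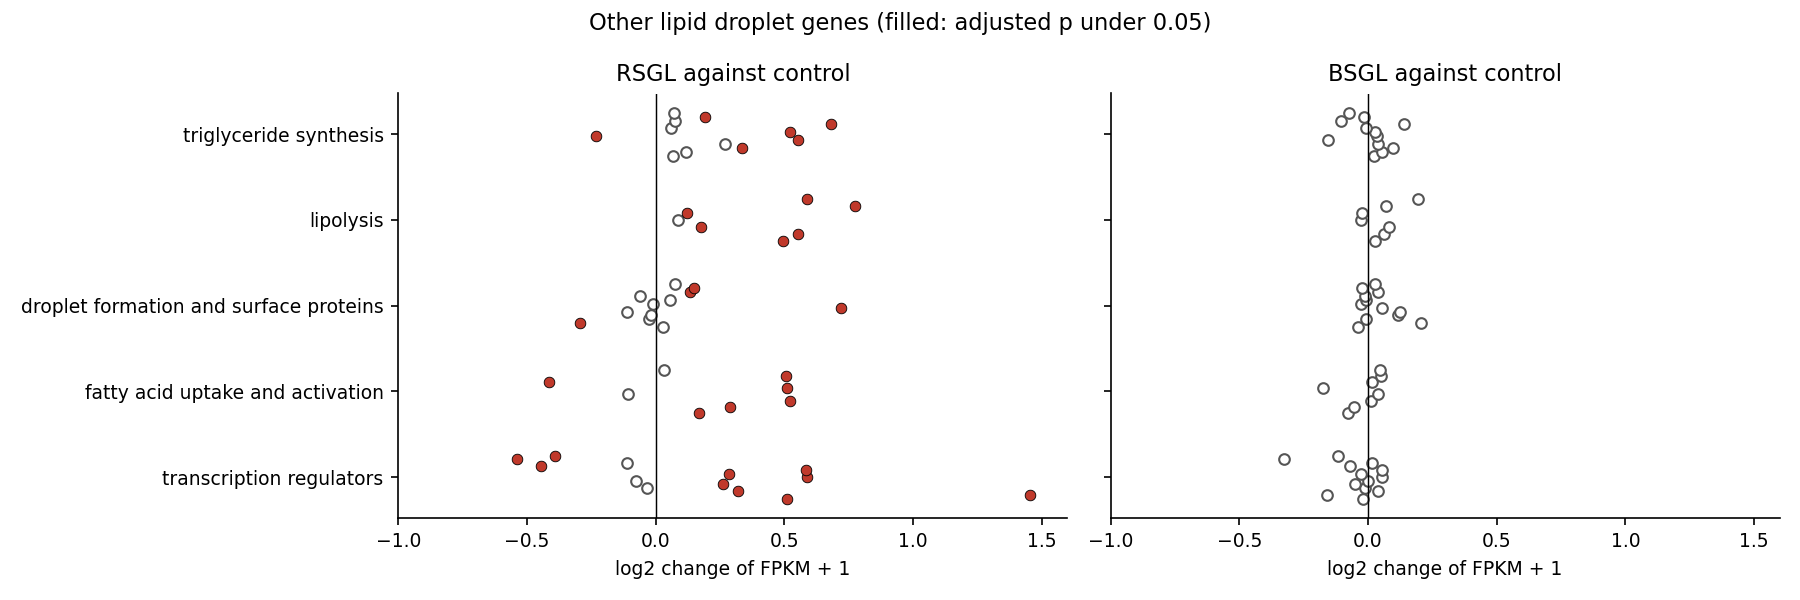
Log2 change of FPKM + 1 for each tested gene of the 5 lists, RSGL against control on the left and BSGL against control on the right; filled points passed at an adjusted p under 0.05 and vertical spread within a list only separates the points. Filled points appear on the left panel, 26 to the right of 0 and 6 to the left, and 0 on the right panel.

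Markers of cell types rich in lipid were read beside these results. Of 7 adipocyte markers, CIDEC alone was tested and fell, and CIDEA and RETN were at 0 in each library. PLIN1, too low to test, went the other way, at 0.203 FPKM in RSGL, 0.0639 FPKM in BSGL and 0.0580 FPKM in control cells. FABP4, also too low to test, averaged 0.0624 FPKM in RSGL cells and 0 in BSGL and control cells. The summed level, most of it CIDEC, ran from 1.11 to 1.39 FPKM in RSGL libraries, 1.74 to 2.08 FPKM in BSGL libraries and 1.26 to 1.88 FPKM in control libraries. Of 8 macrophage markers 2 were tested. CD68, a lysosomal protein not limited to macrophages, rose by 1.54 under RSGL and CD14 fell by 1.22, while AIF1 and TYROBP were at 0 in each library. The macrophage sum, nearly all of it CD68, ran from 116.8 to 121.8 FPKM in RSGL libraries, 47.1 to 48.2 FPKM in BSGL libraries and 42.5 to 43.0 FPKM in control libraries. Of 8 fibroblast markers 3 were tested and COL1A1 and THY1 fell, with sums of 7.92 to 8.20 FPKM in RSGL libraries, 10.4 to 11.1 FPKM in BSGL libraries and 9.95 to 11.4 FPKM in control libraries. Of 7 hepatocyte markers HNF4A alone was tested and fell, with sums of 0.550 to 0.909 FPKM in RSGL libraries, 2.53 to 2.93 FPKM in BSGL libraries and 2.58 to 3.01 FPKM in control libraries. APOB was at 0 in each library, and the 6 endothelial markers stayed at or under 0.1 FPKM. CD14, COL1A1 and HNF4A were tested because of their BSGL and control values, since none of them reached 1 FPKM in an RSGL library. The part of CD68 and of the other moving markers in the results was not tested.

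Genes of like pattern were sought for the 3 genes that changed by at least 1 on the log2 scale, as the nearest protein-coding genes by Euclidean distance between log2(FPKM + 1) profiles over 9 libraries, each centred on its control mean. Nearest to PLIN2 were GDF15, a stress-released cytokine (distance 0.392), DUSP5, a phosphatase of ERK (0.426), and SLC16A6, of the monocarboxylate transporter family (0.590). GDF15 averaged 269.1 FPKM in RSGL cells, 35.4 FPKM in BSGL cells and 32.5 FPKM in control cells. Under BSGL the fitted difference from control was 0.12 for GDF15 and 0.24 for PLIN2. Nearest to PLIN4 were HMGA1 (0.210), an architectural protein of chromatin, PMP22 (0.223) and NIPAL4 (0.231), and nearest to G0S2 were the keratin KRT15 (0.311), PODXL (0.360) and CD68 (0.362). HMGA1 averaged 354.7 FPKM in RSGL cells, 190.1 FPKM in BSGL cells and 169.5 FPKM in control cells. A distance describes these 9 libraries and carries no test.

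On GRCh38, per the deposited table, PLIN3 (gene ID 10226) lies on chromosome 19 at 4838334 to 4867768, PLIN4 (729359) on chromosome 19 at 4502180 to 4520285 and PLIN5 (440503) next to it at 4522531 to 4535196. LIPE (3991) lies on chromosome 19 at 42401507 to 42427426, DGAT2 (84649) on chromosome 11 at 75768733 to 75801536, PNPLA2 (57104) on chromosome 11 at 818895 to 825573 and HILPDA (29923) on chromosome 7 at 128455830 to 128458418. PLIN3, PLIN4, PLIN5 and LIPE thus share chromosome 19, and the neighbours PLIN4 and PLIN5 differed in level, at 2.53 FPKM and 0.0732 FPKM in RSGL cells and at 0.665 FPKM and 0.0913 FPKM in control cells.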

How the data were processed

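RNA from 9 libraries was extracted with TRIzol and made into libraries with a NEBNext Ultra kit, per the labels' protocols. Of tools, the submitters' processing notes name DESeq2 1.16.1, HISAT2 2.0.5 and featureCounts 1.5.0-p3, with no role for any. Per the file headers, the authors deposited FPKM beside gene lengths and positions, and the sequence accessions are those of GRCh38. Whether counting used strand was not given in the sources used here. The control columns carry no compound name and were matched to the control titles by number. Gene lengths were the table's own.

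A gene entered the test if 3 or more of the 9 libraries reached 1 FPKM, as 12775 genes did, with 9 of the 10 described. Values were analysed as log2(FPKM + 1) with limma 3.58.1 in R 4.3.3, fitted to all 9 libraries with 1 term per group, an intensity trend and robust empirical Bayes. Tests were two-sided, Benjamini-Hochberg adjustment ran over the 12775 genes, and calls were made at an adjusted p under 0.05. Multiplying FPKM by gene length gave whole multiples of 1 step within 0.01 for 100% of low values, so fragments could be recovered for limma-voom. A permutation test of 3 libraries against 3 cannot go below p = 0.1 and was not used. Replicates of each group differed by more than sampling noise (chi-square of 4.13 to 9.28 per degree of freedom). The labels do not state separate cultures, so the p-values speak only of the spread among these libraries, possibly a technical one.

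The members, gene lists and tests were chosen with earlier results of these data known. From each list the 3 tested genes with the largest change under RSGL were named. ABHD5, GPAM, GPAT4, SLC27A2, HIF1A, EPAS1, PPARGC1A, TFEB and SREBF1 were added after their values were seen. Alternatives were a pseudocount of 0.1, no filter, quantile scaling, only the 2 groups compared, a replicate block, limma-voom and leaving out each library. Names of 28 genes had become dates in the deposited file and were restored by gene ID. Promoter windows of RefSeq on GRCh38.p14 matched 7 of the 10 genes.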

Additional observations from a re-analysis of the deposited data

How the results depend on the processing

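Over 12 alternatives per comparison, the 27 results of single genes kept sign and side of the threshold in 294 of 324 cases, and 23 lost and 4 gained a call. Calls for PLIN2, PLIN4, DGAT2, G0S2 and HILPDA under RSGL against control held in all 12. Under BSGL against control the 11 calls over all genes became 0 with no filter, with only the 2 groups compared or with a replicate block (1601, 871 and 813 genes at an unadjusted p under 0.05), 31 with limma-voom on recovered fragments, and 0 to 2 with 1 library left out. The single call among the 10 genes, G0S2, became 0 with no filter, with only the 2 groups compared, with the replicate block and with voom, and 0 with each library left out. For RSGL against BSGL the 5 calls among these genes became 3 with no filter and 3 to 4 with 1 library left out. They became 4 with only the 2 groups compared, with the replicate block and with limma-voom. The call of HILPDA in that comparison held in 3 of 12 alternatives and that of PNPLA2 in 8. The cause of these changes was not tested. Leaving out a library or comparing only 2 groups entails fewer samples, and no filter entails more genes. The replicate block and limma-voom used the same libraries and the same genes as the main fit. The block also added terms for replicate, which leaves fewer residual degrees of freedom. Signs turned only for differences near 0 when a library was left out: LIPE under BSGL ran from -0.049 to 0.032, and PLIN3 for RSGL against BSGL from -0.00052 to 0.019. Deviations of libraries with the same replicate number were weakly related over the tested genes (r from -0.212 to 0.121 over 9 pairs, 1 of them over 0.1). Such correlations cannot settle whether the numbers pair the samples, since they average over all tested genes. The block changed the call of G0S2 under BSGL (limma adjusted p = 0.163), of HILPDA against BSGL (0.0623) and of DGAT1 under RSGL (0.0417). Depth limits PLIN5, with 1 to 8 fragments per library.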
